A study of Mus musculus with 8 samples.

Results

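Kinesins are motor proteins that move along microtubules, and the 44 kinesin genes described here were taken by name from the 55414 genes of the count table: every symbol made of Kif, a number and an optional letter a to c, together with the carboxy-terminal motor genes Kifc1, Kifc2 and Kifc3 and the light chain genes Klc1 and Klc2. The rule uses names only, and it was proposed with earlier results of these data known. By 1 textbook role each, though some have more, they were divided into 12 mitotic kinesins, 14 axonal transport kinesins, 6 ciliary kinesins and 12 others. Of the 44, 41 had enough counts to be tested. RNA of 8 mouse libraries was sequenced, in 4 groups of 2 made by treatment and tissue: naive brain and tumor of vehicle mice, and naive brain and tumor of mice given MRX-2843. MRX-2843 blocks the kinases MERTK and FLT3. Per the series' design text, mice whose tumors had been seen by MRI were randomised to vehicle or the drug at 50 mg/kg, given by gavage each day over 5 days. Brains were taken 1 h after the last gavage.

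All 8 libraries carry the ZFTA-RELA fusion, a driver of supratentorial ependymoma, as their genotype and the drug's name as their cell line, naive brain and vehicle included. How the fusion was introduced, and whether the naive tissue is from tumor-bearing animals, is not given in the sources used here. The libraries of a group are called duplicates with no word on separate animals, so p-values measure only the spread between these libraries, which may be technical. Column names carry an unexplained number that is 909 for every MRX-2843 library, 915 for vehicle naive replicate 2 and 914 for the other vehicle libraries, so that number and treatment cannot be told apart. Sex-linked genes also split by treatment: Xist was at 526 to 795 CPM in the 4 MRX-2843 libraries and at 0.408 to 2.87 in the 4 vehicle libraries, and the Y-linked genes Ddx3y and Eif2s3y had 0 counts in all 4 MRX-2843 libraries. CPM here is a count scaled to a common library total, after TMM, edgeR's correction for composition.

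Kinesin motor domains hydrolyse ATP to step along a microtubule, most of them towards its plus end. In a dividing cell, mitotic kinesins build the bipolar spindle, align chromosomes and complete cytokinesis, and their messages are made mostly in late S, G2 and M phase. In neurons, which do not divide, kinesin-1, kinesin-2 and kinesin-3 carry vesicles, mitochondria and cytoskeletal cargo from the cell body along axons and dendrites.

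Library totals ran from 51150569 to 112938462 counts. The 44 kinesins took 0.599% of the counts in both vehicle naive libraries and 0.174% and 0.181% in vehicle tumor. With the drug they took 0.506% and 0.49% in naive brain and 0.674% and 0.695% in tumor. Of the marker lists, neuron markers (8 genes, none at 0 in any group) summed to 5991 and 5847 CPM in vehicle naive brain and to 339 and 344 in vehicle tumor. With MRX-2843 that sum was 2932 and 3019 CPM in naive brain and 3167 and 3128 in tumor. Dividing cell markers (4 genes, none at 0) summed to 39.3 and 40.0 CPM in vehicle naive brain and to 294 and 297 in vehicle tumor. Under the drug they summed to 31.7 and 32.9 CPM in naive brain and 58.2 and 51.5 in tumor. On both summed lists the libraries labelled MRX-2843 tumor were nearer to naive brain than to vehicle tumor. Single markers still differed, since Top2a was at 0.164 and 0.15 CPM in MRX-2843 naive brain and at 9.51 and 6.95 in MRX-2843 tumor. The mitochondrially encoded share of MRX-2843 tumor, 17.3% and 16.4%, was near the 14.7% to 18.5% of naive brain, against 3.26% and 3.37% in vehicle tumor. Zfta and Rela, the genes joined in the fusion, were at 287 and 289.8 CPM and at 84.8 and 86.2 in vehicle tumor, and at 32.7 to 56.9 and 23.4 to 32.1 in the other 6 libraries. Ependymal markers (6 genes, Tmem212 at 0 in vehicle naive brain) summed to 6.06 and 6.03 CPM in vehicle naive brain. In vehicle tumor they summed to 5.12 and 4.15 CPM, so this low sum was no higher in that tumor. The single markers were split there against vehicle naive brain, with 1 called higher, 3 lower and 2 not called (log2 from -3.50 to 7.14). For Tmem212, at 0 in both vehicle naive libraries, a log2 value against that group is no measured fold. In the MRX-2843 libraries their sum was 12 and 8.66 CPM in naive brain and 21.6 and 19.8 in tumor. In such bulk RNA, fewer cells of a type and less RNA per cell cannot be told apart.

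Promoter sequences are shown because the mitotic members moved together and many genes of G2 and M phase carry a CHR element and a CCAAT box, bound by NF-Y, close to their start. The 120 bases before the RefSeq start are given 5′ to 3′ on the gene's strand from RefSeq's GRCm38.p6 table, in lower case with capitals for either motif on either strand. The CHR letters searched were TTTGAA, whose reverse complement is TTCAAA, and as a second form TTCGAA, which reads the same on both strands. The CCAAT box was searched as CCAAT, and on the other strand as ATTGG. The 5 mitotic windows are Kif11 (chr19:37376262-37376381, plus strand), Kif22 (chr7:127042421-127042540, minus strand), Kif15 (chr9:122950961-122951080, plus strand), Kifc1 (chr17:33890634-33890753, minus strand) and Kif18b (chr11:102925125-102925244, minus strand). The 3 axonal transport windows are Kif1a (chr1:93101875-93101994, minus strand), Kif5c (chr2:49619166-49619285, plus strand) and Klc1 (chr12:111758748-111758867, plus strand).
Kif11: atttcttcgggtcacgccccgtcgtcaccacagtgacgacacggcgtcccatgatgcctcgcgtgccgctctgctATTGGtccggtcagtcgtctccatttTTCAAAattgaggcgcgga
Kif22: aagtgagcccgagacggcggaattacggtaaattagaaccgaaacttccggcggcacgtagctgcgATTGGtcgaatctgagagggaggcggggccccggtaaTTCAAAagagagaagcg
Kif15: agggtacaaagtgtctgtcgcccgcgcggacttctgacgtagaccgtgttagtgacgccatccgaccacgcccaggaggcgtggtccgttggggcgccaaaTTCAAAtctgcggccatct
Kifc1: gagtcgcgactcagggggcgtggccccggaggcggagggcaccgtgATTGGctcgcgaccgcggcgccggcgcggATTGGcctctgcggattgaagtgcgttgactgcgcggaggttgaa
Kif18b: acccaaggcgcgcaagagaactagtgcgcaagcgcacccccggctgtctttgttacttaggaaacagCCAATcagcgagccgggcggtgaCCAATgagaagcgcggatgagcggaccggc
Kif1a: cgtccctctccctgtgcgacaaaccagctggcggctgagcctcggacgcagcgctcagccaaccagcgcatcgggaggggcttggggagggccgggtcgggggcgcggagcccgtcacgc
Kif5c: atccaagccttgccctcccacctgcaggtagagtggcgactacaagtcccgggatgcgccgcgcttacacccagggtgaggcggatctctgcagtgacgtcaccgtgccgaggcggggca
Klc1: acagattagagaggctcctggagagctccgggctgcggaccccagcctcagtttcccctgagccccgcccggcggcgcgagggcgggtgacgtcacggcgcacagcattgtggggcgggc

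Kif11 held ATTGG 45 bases and TTCAAA 19 bases before its start, and Kif22 held them at 54 and 17 bases. Kif15 had TTCAAA at 19 bases, Kifc1 had ATTGG at 74 and 45 bases, and Kif18b had CCAAT at 53 and 30 bases. The printed windows are a choice and do not stand for their classes. Among axonal transport genes not printed, Kif3a had ATTGG at 18 bases, Kif3b CCAAT at 69 and Kif1b ATTGG at 87. Of the mitotic genes not printed, Kif18a and Kif20b had neither motif in the 250 bases searched. Over the 250 bases before the start, CHR letters were in 5 of 11 mitotic starts (45.5%), in 1 of 11 axonal transport starts (9.09%) and in 17.1% of all 32851 starts of the table. The CCAAT letters were in 7 of 11 mitotic starts (63.6%), 4 of 11 axonal transport starts (36.4%) and 33.8% of all starts. Both motifs were in 3 of 11 (27.3%), 0 of 11 and 6.02%. The 11 mitotic starts stand for 11 genes and the 11 axonal transport starts for 9, since Kif1a and Kif1b have several starts. The window printed for Kif1a is the first listed, and the CHR match is at its other start. Kif5a, Kif21b, Kifc2 and Klc2 are without an entry, and Kif5b and Kif20a were not used. The motifs can overlap each other by a base, and a match describes letters only, with no measure of binding in these data.

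The comparison of vehicle tumor with vehicle naive brain asks how kinesin messages of the tumor differ from those of brain tissue under the same dosing. All 12 mitotic kinesins rose in vehicle tumor and all 14 axonal transport kinesins fell, by edgeR's quasi-likelihood test with Benjamini-Hochberg adjustment over all 24356 genes tested. For scale, 29.3% of all tested genes were called higher and 30.8% lower in this comparison. The median log2 fold change was 3.87 over the mitotic list, -2.23 over the axonal transport list and -0.03 over all genes tested. Per kb of exonic length, mitotic kinesins summed to 3.32 ± 0.262 CPM in vehicle naive brain (mean ± SD, n = 2) and 35.1 ± 1.07 in vehicle tumor. In the same order axonal transport kinesins summed to 935 ± 2.65 and 116 ± 3.28. Axonal transport message exceeded mitotic message by a factor of 267.5 and 297.9 in the vehicle naive libraries and of 3.304 and 3.294 in the vehicle tumor libraries. Cell type markers moved in the same libraries: 4 of 4 dividing cell markers were called higher and 8 of 8 neuron markers lower (sums above). The falls of the neuron markers were uneven, from log2 -5.62 to -0.17. Oligodendrocyte markers were lower in 6 of 6 cases and summed to 7323 and 7257 CPM in vehicle naive brain, against 430 and 448 in the tumor. Microglia and macrophage markers were higher in 5 of 5 cases (152 and 153 CPM against 1264 and 1287), and endothelial markers in 3 of 3 (61.5 and 67.2 against 286 and 264). Of these lists no marker was at 0 in both libraries of a group, and their part in the result was not tested. With the MRX-2843 tumor group left out of the fit the counts were again 12 and 14. Asking also for an absolute log2 fold change of at least 1 left 12 and 11, and leaving out the genes of chromosomes X and Y left 11 mitotic calls, since Kif4 was then not tested.

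**Figure D1:**
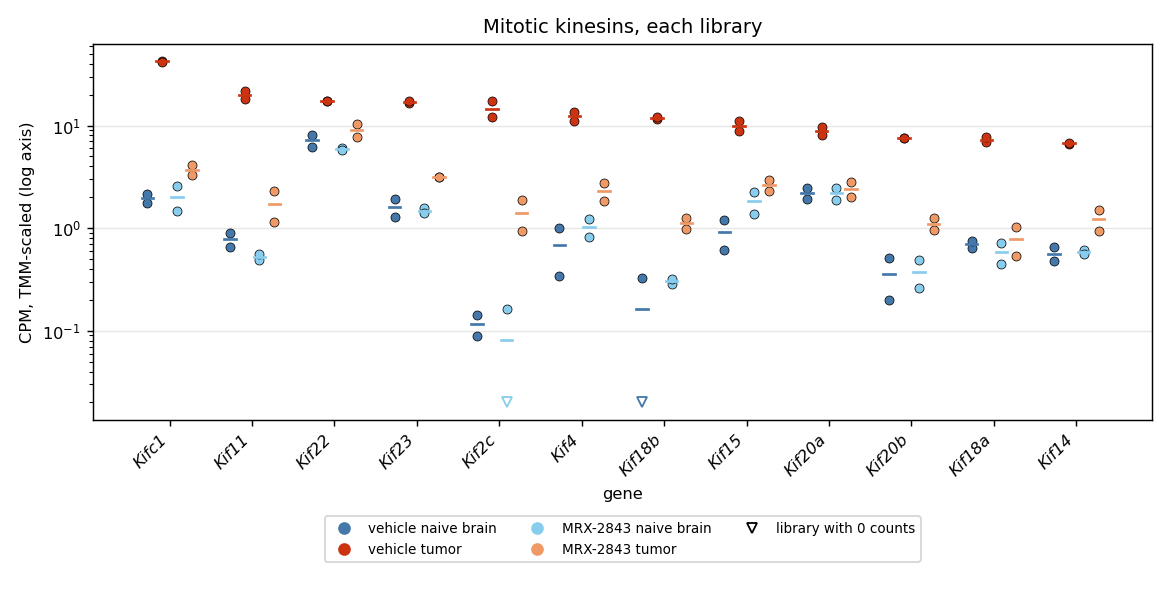
Level of each mitotic kinesin in each library, as CPM of the TMM-scaled library on a log axis. Points are libraries, bars are group means (n = 2) and open triangles are libraries with 0 counts drawn at the axis foot. The 2 vehicle tumor points of each of the 12 genes lie above its other 6 points. The share of all tested genes with such a gap is not given here.

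The motors that set up the spindle poles were low in naive brain and rose in vehicle tumor. Gene coordinates are on GRCm38. Kif11 (chr19:37376403-37421859, plus strand), the kinesin-5 tetramer that slides antiparallel microtubules and pushes the poles apart, was at 0.66 and 0.894 CPM in vehicle naive brain and at 18.3 and 21.6 in vehicle tumor. With the drug, Kif11 was at 0.492 and 0.562 CPM in naive brain and at 1.14 and 2.31 in tumor. The vehicle tumor libraries were the highest and did not overlap any other group, with a log2 fold change of 4.68 ± 0.33 (SE) against vehicle naive brain (adjusted p = 6.91e-09). Kif15, the kinesin-12 that helps keep a spindle bipolar, was at 0.617 and 1.21 CPM in vehicle naive brain and at 11 and 8.94 in vehicle tumor. In MRX-2843 libraries Kif15 was at 2.26 and 1.39 CPM (naive brain) and 2.92 and 2.31 CPM (tumor). It too was highest in vehicle tumor, at log2 3.45 ± 0.37 (adjusted p = 9.11e-07). Kifc1 (chr17:33875659-33890661, minus strand), the minus-end-directed kinesin-14 that gathers microtubules at the poles and clusters extra centrosomes, was the most abundant mitotic kinesin of vehicle tumor per length, at 12.4 ± 0.145 CPM per kb (SD, n = 2). Its libraries were at 2.17 and 1.77 CPM in vehicle naive brain and at 42.5 and 41.8 in vehicle tumor. Kifc1 under MRX-2843 was at 1.46 and 2.59 CPM in naive brain and at 3.29 and 4.15 in tumor. Vehicle tumor was highest, by 4.42 ± 0.23 over vehicle naive brain on the log2 scale (adjusted p = 2.04e-10). Reads of Kifc1 and its near-identical copy Kifc5b can be split between them in counting, so both levels are uncertain. Kifc5b was at 2.18 and 3.44 CPM in vehicle naive brain and at 10.4 and 9.92 in vehicle tumor (log2 1.86 ± 0.25, adjusted p = 1.15e-05).

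Motors that work on chromosomes and on microtubule ends showed the widest range. Kif2c (chr4:117159639-117182639, minus strand), the kinesin-13 that takes microtubules apart at centromeres to correct wrong attachments, was at 0.144 and 0.0894 CPM in vehicle naive brain and at 12 and 17.2 in vehicle tumor. With the drug, Kif2c was at 0.164 and 0 CPM in naive brain and at 1.86 and 0.944 in tumor. Behind these values are 10 and 6 counts in vehicle naive brain against 1039 and 1513 in vehicle tumor, and MRX-2843 naive replicate 2 had 0 counts, which allows up to 3 counts or 0.0281 CPM. The vehicle tumor libraries stood above all others, and the log2 fold change of 6.94 ± 0.65 was the largest of the 41 tested kinesins (adjusted p = 1.96e-07). Kif18b, a kinesin-8 that shortens astral microtubules, was at 0 and 0.328 CPM in vehicle naive brain and at 11.7 and 12.2 in vehicle tumor. In MRX-2843 libraries Kif18b was at 0.287 and 0.319 CPM (naive brain) and 0.984 and 1.25 CPM (tumor). Vehicle naive replicate 1 had 0 counts of it, which allows up to 0.0431 CPM, and its rise in vehicle tumor was 6.19 ± 0.68 on the log2 scale (adjusted p = 1.23e-06). Its relative Kif18a, which dampens chromosome movements at metaphase, was at 0.646 and 0.745 CPM in vehicle naive brain and at 6.86 and 7.67 in vehicle tumor. Kif18a under MRX-2843 was at 0.451 and 0.712 CPM in naive brain and at 1.02 and 0.54 in tumor. Vehicle tumor was again the highest group, at log2 3.38 ± 0.41 (adjusted p = 4.14e-06). Of the chromokinesins, which bind chromosome arms, Kif4 was at 0.344 and 1.01 CPM in vehicle naive brain and at 13.5 and 11 in vehicle tumor. With the drug, Kif4 was at 0.82 and 1.24 CPM in naive brain and at 2.78 and 1.82 in tumor. Kif4 is X-linked, and its log2 fold change within the vehicle groups was 4.18 ± 0.43 (adjusted p = 6.42e-07). The other chromokinesin, Kif22, was already at 8.18 and 6.2 CPM in vehicle naive brain. With the drug it was at 6.03 and 5.75 CPM in naive brain and at 10.4 and 7.69 in tumor. It reached 17.4 and 17.4 CPM in vehicle tumor, the smallest rise of the 12 at log2 1.27 ± 0.19 (adjusted p = 2.72e-05).

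The cytokinesis motors rose as well. Kif23, which forms the centralspindlin complex with Racgap1, was at 1.94 and 1.3 CPM in vehicle naive brain and at 16.7 and 17.5 in vehicle tumor. In MRX-2843 libraries Kif23 was at 1.56 and 1.41 CPM (naive brain) and 3.18 and 3.12 CPM (tumor). The vehicle tumor libraries were far above the other 6 and gave a log2 fold change of 3.40 ± 0.24 (adjusted p = 9.47e-09). Kif20b, a motor of the midbody, was at 0.201 and 0.506 CPM in vehicle naive brain and at 7.5 and 7.64 in vehicle tumor. Kif20b under MRX-2843 was at 0.492 and 0.262 CPM in naive brain and at 0.967 and 1.25 in tumor. Its rise in vehicle tumor was 4.42 ± 0.48 (log2, adjusted p = 1.19e-06). Kif14, which works with citron kinase in abscission, was at 0.474 and 0.655 CPM in vehicle naive brain and at 6.62 and 6.76 in vehicle tumor. With the drug, Kif14 was at 0.615 and 0.562 CPM in naive brain and at 1.51 and 0.944 in tumor. Its log2 fold change of 3.56 ± 0.40 (adjusted p = 1.54e-06) came with no overlap between vehicle tumor and any other group. Kif20a, which moves the chromosomal passenger complex to the midzone, was at 2.48 and 1.94 CPM in vehicle naive brain and at 8.0 and 9.71 in vehicle tumor. In MRX-2843 libraries Kif20a was at 2.46 and 1.9 CPM (naive brain) and 2.83 and 2.01 CPM (tumor). Vehicle tumor was the highest group here too, with the smallest rise after Kif22, at log2 2.0 ± 0.29 (adjusted p = 2.34e-05). Kif18a, Kif20a and Kif4 overlap the opposite-strand genes Mettl15, Cdc23 and Pdzd11, and the strand setting of the counting is not stated, so reads of the partners cannot be told apart.

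**Figure D2:**
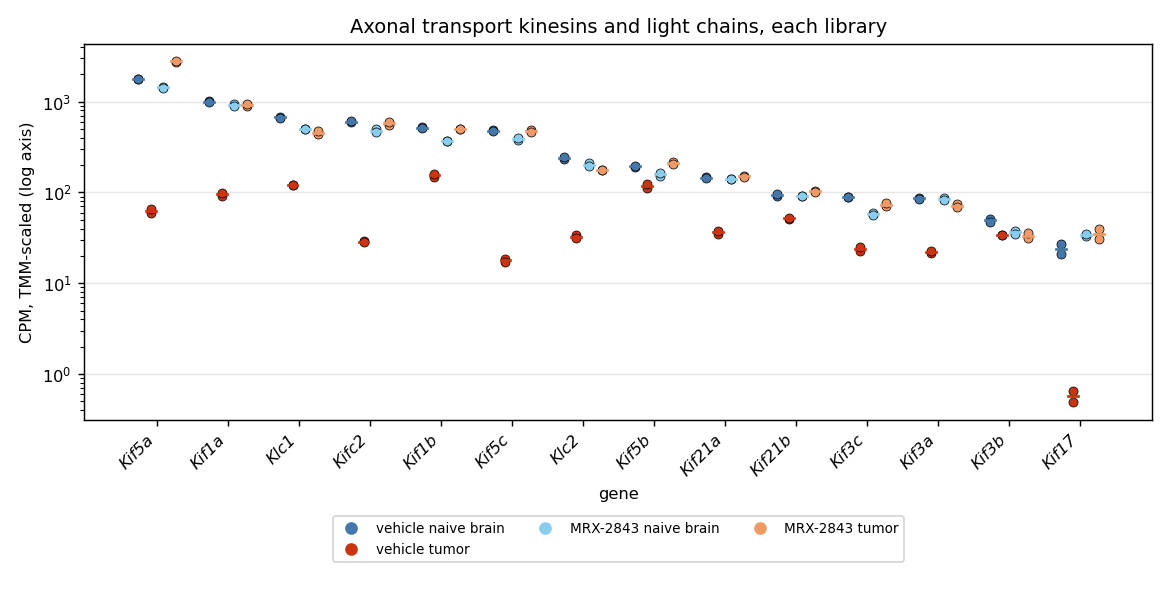
Level of each axonal transport kinesin and light chain in each library, as CPM of the TMM-scaled library on a log axis. Points are libraries and bars are group means (n = 2). The 2 vehicle tumor points lie below the vehicle naive points for all 14 genes, least so for Kif3b and Kif5b. The share of all tested genes with such a gap is not given here.

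Among the axonal transport kinesins, the neuron-enriched heavy chains of kinesin-1 fell far and the ubiquitous one fell little. Kif5a (chr10:127225696-127263348, minus strand), the neuronal kinesin-1 heavy chain that carries neurofilaments among other axonal cargo, was the most abundant kinesin of vehicle naive brain per length, at 251 ± 0.494 CPM per kb. Its libraries were at 1753 and 1758 CPM in vehicle naive brain and at 59.6 and 65.6 in vehicle tumor. Kif5a under MRX-2843 was at 1458 and 1425 CPM in naive brain and at 2743 and 2799 in tumor. Vehicle tumor was the lowest group and did not overlap the rest, and the log2 fold change was -4.81 ± 0.05 (adjusted p = 1.23e-17). Kif5c, the second neuronal heavy chain, was at 489 and 472 CPM in vehicle naive brain and at 18.3 and 17.3 in vehicle tumor. With the drug, Kif5c was at 381 and 393 CPM in naive brain and at 487 and 465 in tumor. It too was lowest in vehicle tumor, at log2 -4.75 ± 0.06 (adjusted p = 4.59e-17). Kif5b, the heavy chain made in most cell types, was at 193 and 195 CPM in vehicle naive brain and at 112 and 125 in vehicle tumor. In MRX-2843 libraries Kif5b was at 152 and 165 CPM (naive brain) and 217 and 204 CPM (tumor). Its fall in vehicle tumor of -0.71 (SE 0.07, adjusted p = 1.8e-07) on the log2 scale was among the smallest of the list. The light chains, which bind cargo for these motors, lay between. Klc1 was at 674 and 667 CPM in vehicle naive brain and at 121 and 122 in vehicle tumor. Klc1 under MRX-2843 was at 499 and 495 CPM in naive brain and at 436 and 472 in tumor. Klc1 fell at log2 -2.46 ± 0.05 (adjusted p = 4.47e-15) and overlaps the opposite-strand gene Xrcc3. Klc2 was at 233 and 243 CPM in vehicle naive brain and at 33.8 and 31.3 in vehicle tumor. With the drug, Klc2 was at 210.2 and 195 CPM in naive brain and at 175 and 179 in tumor. Its fall in vehicle tumor was log2 -2.87 ± 0.07 (adjusted p = 1.27e-14).

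The kinesin-3 motors of the axon, and with them the kinesin-14 Kifc2, were also lowest in vehicle tumor. Kif1a (chr1:93015464-93101951, minus strand), which carries precursors of synaptic vesicles, was at 1006 and 985 CPM in vehicle naive brain and at 91.8 and 99.2 in vehicle tumor. In MRX-2843 libraries Kif1a was at 936 and 896 CPM (naive brain) and 904 and 937 CPM (tumor). The 6 libraries other than vehicle tumor lay within 896 to 1006 CPM, and the fall in vehicle tumor was -3.38 ± 0.05 on the log2 scale (adjusted p = 2.44e-16). Kif1b, which carries mitochondria and vesicle precursors, was at 519.6 and 513 CPM in vehicle naive brain and at 148 and 159 in vehicle tumor. Kif1b under MRX-2843 was at 364 and 369 CPM in naive brain and at 493 and 504 in tumor. The vehicle tumor libraries were the lowest, at log2 -1.75 ± 0.05 (adjusted p = 1.73e-13). Kifc2, a brain-enriched kinesin-14, was at 597 and 606 CPM in vehicle naive brain and at 28.8 and 28.7 in vehicle tumor. With the drug, Kifc2 was at 497 and 462 CPM in naive brain and at 557 and 601 in tumor. It fell at log2 -4.39 ± 0.06 (adjusted p = 9.86e-17), and its opposite-strand neighbour Cyhr1 overlaps it.

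Kinesin-2 motors work as heterotrimers in axons and also drive transport into cilia. The shared subunit Kif3a was at 86.8 and 85.5 CPM in vehicle naive brain and at 21.6 and 22.4 in vehicle tumor. In MRX-2843 libraries Kif3a was at 87.3 and 83.2 CPM (naive brain) and 73.8 and 68.5 CPM (tumor). The lowest libraries were those of vehicle tumor, at log2 -1.97 ± 0.07 (adjusted p = 2.87e-12). Its partner Kif3b was at 51.4 and 47.8 CPM in vehicle naive brain and at 33.6 and 34.2 in vehicle tumor. Kif3b under MRX-2843 was at 37.8 and 34.7 CPM in naive brain and at 31.3 and 35.5 in tumor. Kif3b had the smallest fall of the 14, -0.55 ± 0.09 on the log2 scale (adjusted p = 9.01e-05), and its vehicle tumor values overlapped those of MRX-2843 tumor. The neuron-enriched partner Kif3c was at 89.6 and 89.3 CPM in vehicle naive brain and at 22.7 and 25.2 in vehicle tumor. With the drug, Kif3c was at 59 and 56.3 CPM in naive brain and at 70.7 and 76.2 in tumor. This partner fell at log2 -1.90 ± 0.08 (adjusted p = 1.1e-11). Kif17, a homodimeric kinesin-2 that carries NMDA receptor subunits in dendrites, was at 27 and 20.9 CPM in vehicle naive brain and at 0.486 and 0.658 in vehicle tumor. In MRX-2843 libraries Kif17 was at 32.8 and 34.4 CPM (naive brain) and 30.9 and 39.2 CPM (tumor). It showed the largest fall of the list, -5.38 ± 0.20 (log2, adjusted p = 4.17e-12), from 1881 and 1401 counts to 42 and 58. The kinesin-4 motors Kif21a and Kif21b, which restrain microtubule growth in neurons, also fell. Kif21a was at 148 and 143 CPM in vehicle naive brain and at 34.5 and 38.1 in vehicle tumor. Kif21a under MRX-2843 was at 142 and 142 CPM in naive brain and at 154 and 149 in tumor. It fell in vehicle tumor at log2 -2.0 ± 0.06 (adjusted p = 6.84e-13). Kif21b was at 92.2 and 96.1 CPM in vehicle naive brain and at 51.3 and 52 in vehicle tumor. With the drug, Kif21b was at 91.6 and 92 CPM in naive brain and at 103 and 102 in tumor. The fall of Kif21b was -0.87 ± 0.06 (log2, adjusted p = 7.26e-09).

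**Figure D3:**
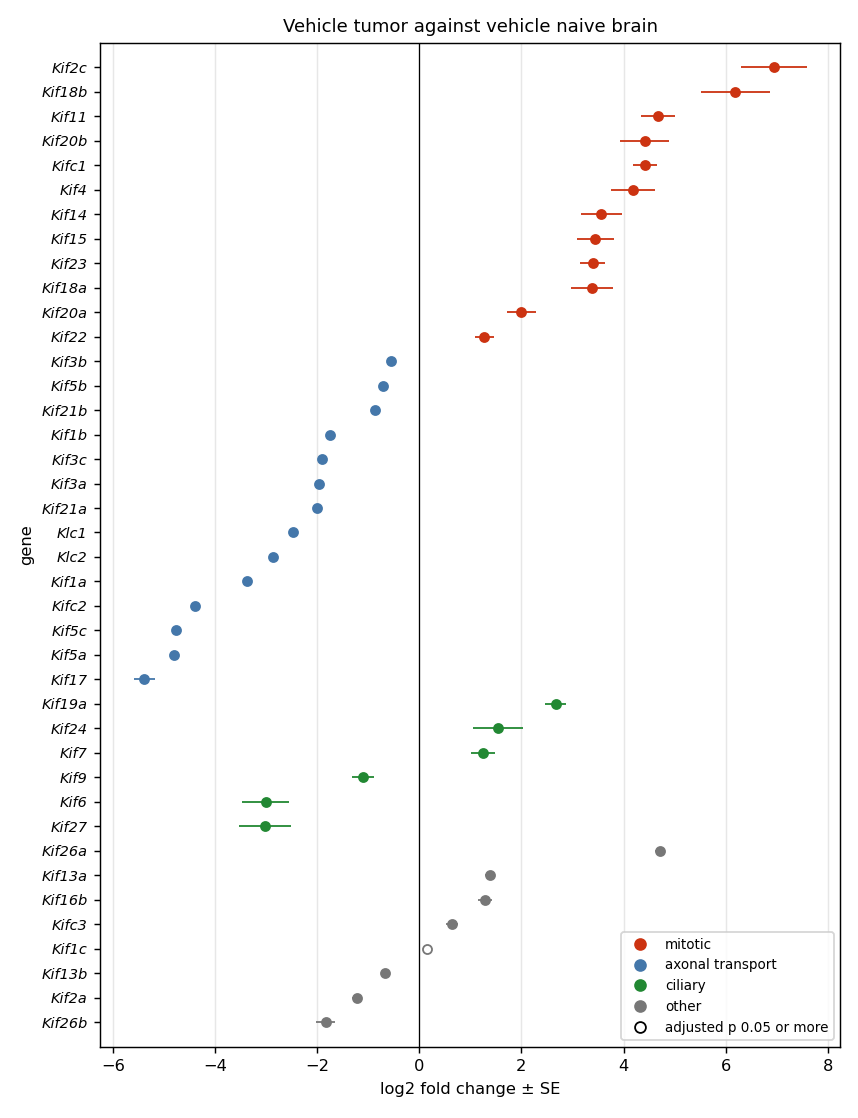
Log2 fold change ± SE of vehicle tumor against vehicle naive brain for 40 of the 41 tested kinesins (Kif28, with 0 counts in vehicle tumor, is left out), by class, with open points where the adjusted p was 0.05 or more. All 12 mitotic points lie right of 0 and all 14 axonal transport points left of it, while ciliary and other kinesins lie on both sides.

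Within families, the make-up per exonic length changed with the levels, and these shares are given as values per library with no test. In vehicle naive brain Kif5a made up 73.0% and 73.5% of kinesin-1 heavy chain message, against 33.9% and 34.2% in vehicle tumor. Kif5b went from 7.03% and 7.14% to 55.9% and 57.0%. In MRX-2843 tumor the Kif5a share was 80.5% and 81.5%, above its share of 74.3% and 72.9% in MRX-2843 naive brain. Kif1c, a kinesin-3 found in many cell types, was 10.7% and 10.3% of Kif1 message in vehicle naive brain, against 48.9% and 47.6% in the tumor. Kif3b took 17.8% and 17.3% of kinesin-2 message in vehicle naive brain, against 39.3% and 38.3% in the tumor. Kif17 took 11.5% and 9.31% against 0.698% and 0.905%. Kifc1 was 0.402% and 0.325% of the kinesin-14 message in vehicle naive brain, against 44.5% and 43.5% in the tumor. It was 0.651% and 0.756% in MRX-2843 tumor. Each of these shares of Kif5a, Kif5b, Kif1c, Kif3b, Kif17 and Kifc1 in vehicle tumor lay outside the range of the other 6 libraries, while that of Kif3c (20.2% and 21.4%) lay within it, at 17.1% to 24.6%. Over all kinesins, the mitotic class held 14.9% of the message per length in each vehicle tumor library and 0.32% to 0.591% in the other 6. The axonal class held 49.2% and 49.0% against 93.9% to 95.3%.

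**Figure D4:**
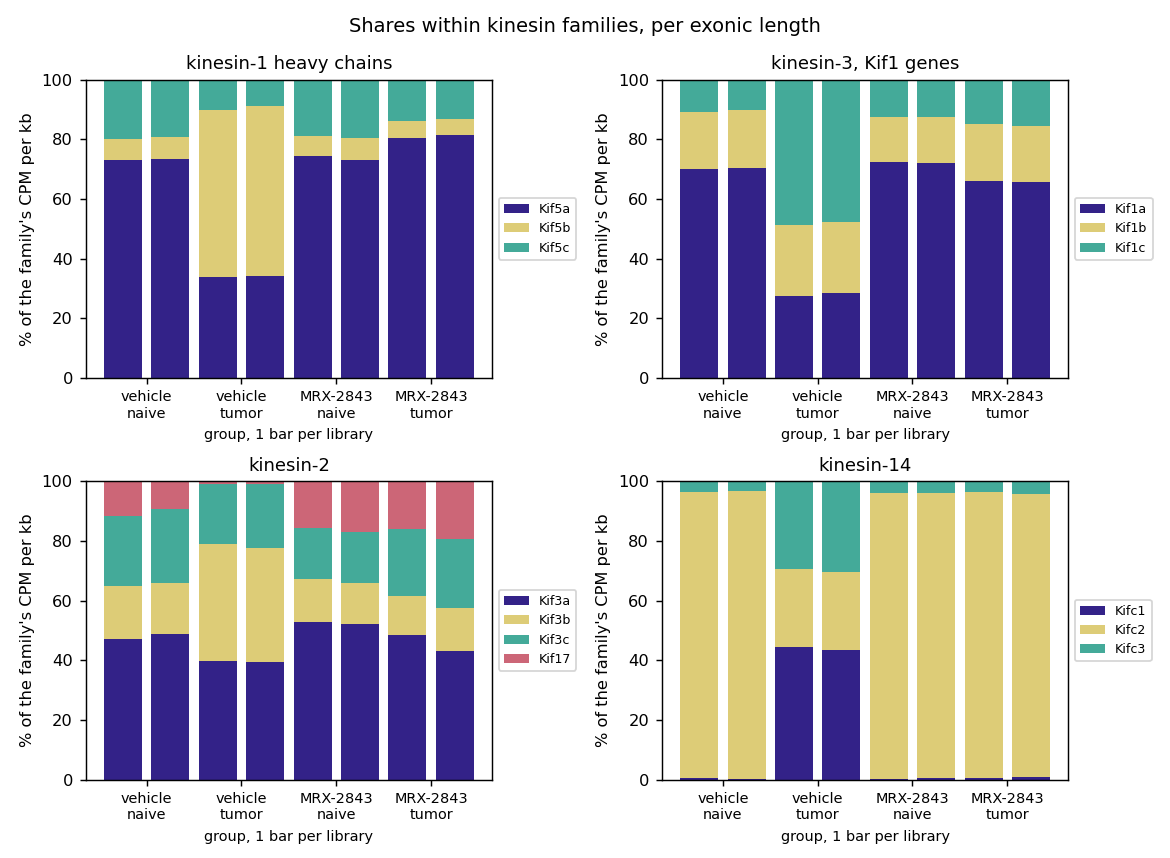
Share of each gene in the CPM per kb of its kinesin family, in percent, with 1 stacked bar per library. In the 2 vehicle tumor bars Kif5b, Kif1c, Kif3b and Kifc1 take larger shares than in the other 6 bars.

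Ciliary kinesins, of interest in a tumor related to ciliated ependymal cells, had no common direction: 3 of 6 rose and 3 of 6 fell in vehicle tumor. Kif19a, which limits the length of motile cilia, was at 3.65 and 3.9 CPM in vehicle naive brain and at 20.3 and 27.8 in vehicle tumor. In MRX-2843 libraries Kif19a was at 4.06 and 4.08 CPM (naive brain) and 5.01 and 6.68 CPM (tumor). Vehicle tumor had its highest level (log2 2.67 ± 0.20, adjusted p = 1.81e-08). Kif7, which organises the tip of the primary cilium for hedgehog signalling, was at 3.16 and 3.57 CPM in vehicle naive brain and at 7.92 and 8.08 in vehicle tumor. Kif7 under MRX-2843 was at 4.22 and 3.37 CPM in naive brain and at 4.9 and 4.94 in tumor. It rose at log2 1.25 ± 0.23 (adjusted p = 0.000215) and overlaps the opposite-strand gene Ticrr, so the source of its reads cannot be told apart. Kif24, which holds back cilium formation, was at 0.574 and 0.909 CPM in vehicle naive brain and at 2.4 and 1.91 in vehicle tumor. With the drug, Kif24 was at 0.677 and 0.881 CPM in naive brain and at 1.11 and 1.26 in tumor. Its rise in vehicle tumor was log2 1.54 ± 0.49 (adjusted p = 0.0139). The Kif24 call was lost without vehicle naive replicate 1 (log2 1.25, adjusted p = 0.106) or without vehicle tumor replicate 1 (log2 1.36, adjusted p = 0.08). The other 3 ciliary members fell. Kif6 was at 2.87 and 1.56 CPM in vehicle naive brain and at 0.185 and 0.363 in vehicle tumor. In MRX-2843 libraries Kif6 was at 2.34 and 2.62 CPM (naive brain) and 3.22 and 3.27 CPM (tumor). Vehicle tumor was lowest, at log2 -3.01 ± 0.47 (adjusted p = 4.84e-05). Kif27, a relative of Kif7, was at 1.77 and 1.49 CPM in vehicle naive brain and at 0.0925 and 0.306 in vehicle tumor. Kif27 under MRX-2843 was at 3.06 and 3.31 CPM in naive brain and at 2.69 and 3.63 in tumor. Kif27 fell in vehicle tumor at log2 -3.02 ± 0.51 (adjusted p = 0.000102). Kif9 was at 6.24 and 6.2 CPM in vehicle naive brain and at 3.11 and 2.68 in vehicle tumor. With the drug, Kif9 was at 6.03 and 6.59 CPM in naive brain and at 7.0 and 6.91 in tumor. The fall of Kif9 in vehicle tumor was -1.10 ± 0.21 (log2, adjusted p = 0.000333). The sums of ependymal markers stand above, highest in MRX-2843 tumor, and their part in these changes was not tested.

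Of the 12 other kinesins 9 were tested, and 4 rose, 3 fell and 2 were not called in vehicle tumor. Kif26a (chr12:112146208-112181747, plus strand), a kinesin without motor activity that takes part in signalling, had the largest rise outside the mitotic class. It was at 8.29 and 9.34 CPM in vehicle naive brain and at 232 and 230.1 in vehicle tumor. In MRX-2843 libraries Kif26a was at 7.71 and 6.39 CPM (naive brain) and 12.4 and 11.1 CPM (tumor). The vehicle tumor libraries were over all others, at log2 4.71 ± 0.10 (adjusted p = 6.45e-15), and per length Kif26a reached 33.4 ± 0.152 CPM per kb, above every mitotic kinesin in that group. Its relative Kif26b moved the other way. Kif26b was at 8.67 and 7.28 CPM in vehicle naive brain and at 2.22 and 2.27 in vehicle tumor. Kif26b under MRX-2843 was at 10.5 and 12.1 CPM in naive brain and at 10.3 and 9.98 in tumor. Vehicle tumor was lowest (log2 -1.83 ± 0.19, adjusted p = 5.73e-07). The endosome motors Kif13a and Kif16b rose. Kif13a was at 23.6 and 23.5 CPM in vehicle naive brain and at 59.7 and 62.5 in vehicle tumor. With the drug, Kif13a was at 32.3 and 31.6 CPM in naive brain and at 40.1 and 43 in tumor. The rise of Kif13a was log2 1.38 ± 0.08 (adjusted p = 1.09e-09). Kif16b was at 9.08 and 9.35 CPM in vehicle naive brain and at 20.9 and 24 in vehicle tumor (log2 1.28 ± 0.14, adjusted p = 1.11e-06). Kifc3, a minus-end motor of epithelial junctions, was at 29.3 and 27.5 CPM in vehicle naive brain, against 43.3 and 45.6 in the tumor (log2 0.64 ± 0.12, adjusted p = 0.000195). Kif13b, a kinesin-3 with wide cargo, fell from 59.1 and 60.4 to 34 and 41.5 CPM (log2 -0.66 ± 0.09, adjusted p = 1.03e-05). Kif2a, which trims neuronal branches, is a kinesin-13 like the mitotic member Kif2c but was not placed in the mitotic class. Unlike Kif2c, Kif2a fell, from 59.7 and 51.8 to 22.4 and 25.2 CPM (log2 -1.23 ± 0.10, adjusted p = 2.5e-08). The classes were chosen with earlier results known. The common direction of the 12 mitotic kinesins depends on leaving Kif2a out, here and between the tumor groups. Kif1c was at 120.2 and 113 CPM in vehicle naive brain, against 127 and 129.8 in the tumor (log2 0.14 ± 0.06, adjusted p = 0.0583). It passed the threshold under 6 alternatives, up to log2 0.40 with library totals (adjusted p = 5.17e-05). Kif28, which overlaps Ahctf1, had 0 and 10 counts in vehicle naive brain and 0 in both vehicle tumor libraries, with no call (adjusted p = 0.121). All its vehicle naive counts were in replicate 2, so no minimum fold is given. Kif12 was seen only as 8 counts in MRX-2843 naive replicate 2 and 8 in MRX-2843 tumor replicate 1. Kif19b was seen as 4 counts in vehicle tumor replicate 2 and 2 in MRX-2843 naive replicate 1, and Kif2b had 0 counts in all 8 libraries.

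Genes that work with these motors, from lists that hold no gene of the set, moved as follows in vehicle tumor against vehicle naive brain. The mitotic partners include Cenpe, itself a kinesin motor that the name rule leaves out. Of 18 mitotic partners, 17 rose and 1 fell, with a median log2 fold change of 3.62. Tpx2, which activates Aurora A on the spindle, was at 3.01 and 2.77 CPM in vehicle naive brain and at 38.5 and 38 in vehicle tumor (log2 3.73 ± 0.19, adjusted p = 1.62e-10). The passenger complex members Cdca8 and Birc5 rose at log2 3.53 and 3.41 (adjusted p = 8.51e-09 and 8.97e-09). Anln, an actin-binding protein of the cleavage furrow, was the member that fell (log2 -0.92 ± 0.09, adjusted p = 3.48e-07). Anln was at 49.6 and 49.5 CPM in vehicle naive brain and at 24 and 28.5 in vehicle tumor. With the drug it was at 25.5 and 25.6 CPM in naive brain and highest, at 87.8 and 80.9, in tumor. Of 18 adaptors and cargo linkers of transport kinesins, 17 fell and 1 rose: the light chain gene Klc3, at 0.474 and 1.06 CPM in vehicle naive brain against 2.54 and 2.36 in the tumor (log2 1.68 ± 0.54, adjusted p = 0.0146). The 3 with the smallest adjusted p were the liprins Ppfia2 and Ppfia3, which link Kif1a to cargo (log2 -5.10 and -4.07, adjusted p = 4.05e-15 and 7.8e-15), and Mapk8ip1, which joins cargo to kinesin light chains (log2 -2.12, adjusted p = 2.11e-14). The axonal cytoskeleton list fell whole, 14 of 14, with a median of -3.83, with the smallest adjusted p for the microtubule regulators Stmn3 and Stmn2 and the microtubule-associated Map1a (log2 -5.32, -5.24 and -3.72, adjusted p = 2.5e-17, 4.07e-17 and 8.03e-17). Dynein and dynactin, the retrograde transport machinery, were mixed: 13 of 18 fell, 2 were not called and 3 rose. The smallest adjusted p among the falls were of the light chain Dynll2 and the intermediate chain Dync1i1 (log2 -1.61 and -5.25, adjusted p = 5.48e-13 and 6.68e-12). The 3 that rose were Bicd2 (log2 1.63, adjusted p = 6.87e-11), an adaptor, Nde1 (log2 1.31, adjusted p = 3.35e-08), which also serves dynein at the spindle, and Dctn4 (log2 0.25, adjusted p = 0.00563).

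The 2 tumor groups were compared to see how kinesin messages of tumor libraries differ after dosing with MRX-2843. All 12 mitotic kinesins fell in MRX-2843 tumor against vehicle tumor, and 13 of 14 axonal transport kinesins rose. Over all genes tested, 29.8% were called lower and 30.6% higher in this comparison. The median log2 fold change was -2.61 over the mitotic list, 1.98 over the axonal transport list and 0.03 over all genes. This comparison shares its vehicle tumor libraries with the comparison above, so the opposite signs in the 2 comparisons are not independent. Mitotic kinesins summed to 5.77 ± 0.549 CPM per kb in MRX-2843 tumor (SD, n = 2), and axonal transport kinesins to 993 ± 20.7, with an axonal to mitotic ratio of 158.9 and 187.3 in the 2 libraries. Cell type markers moved in the same libraries. Of 8 neuron markers 7 were called higher and 1 lower (log2 -0.18), 6 of 6 oligodendrocyte markers were higher and 4 of 4 dividing cell markers lower. Oligodendrocyte markers (6 genes, none at 0) summed to 430 and 448 CPM in vehicle tumor and to 13728 and 14176 in MRX-2843 tumor. The part of these cell types in the result was not tested. Microglia and macrophage markers (5 genes, none at 0) summed to 1264 and 1287 CPM in vehicle tumor and to 200 and 209 in MRX-2843 tumor, beside the fall of the mitotic kinesins. Endothelial markers (3 genes) were lower in 3 of 3 cases, at 59.3 and 61.7 CPM in MRX-2843 tumor, and ependymal markers higher in 6 of 6 (sums above). Their part in the result was not tested.

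By role, the spindle motors Kif11 and Kifc1 fell at log2 -3.52 ± 0.30 and -3.50 ± 0.22 (adjusted p = 8.77e-08 and 1.8e-09). Kif15 fell at -1.93 ± 0.34 (adjusted p = 0.000159). The microtubule end motors Kif18b, Kif2c and Kif18a fell at -3.41, -3.38 and -3.22 (adjusted p = 8.1e-05, 3.02e-05 and 6.91e-06). Among cytokinesis motors Kif20b, Kif14, Kif23 and Kif20a fell at -2.77, -2.45, -2.44 and -1.87 (adjusted p = 5.74e-05, 4.38e-05, 2.66e-07 and 4.59e-05). Of the chromokinesins, Kif4 fell at -2.41 and Kif22 at -0.94 (adjusted p = 7.07e-05 and 0.000438). The 2 MRX-2843 tumor libraries did not overlap the 2 vehicle tumor libraries for any of the 12. The share of all tested genes without such overlap is not given here, so this count describes the 12 genes only. On the axonal side the largest rises were of Kif17 (5.93 ± 0.20, adjusted p = 1.52e-12), Kif5a (5.47 ± 0.05, adjusted p = 8.62e-18), Kif5c (4.74 ± 0.06, adjusted p = 4.95e-17) and Kifc2 (4.33 ± 0.06, adjusted p = 1.17e-16). Kif1a rose at 3.27, the light chains Klc2 and Klc1 at 2.44 and 1.90, and Kif5b and Kif21b at 0.83 and 0.99. Kif3b was the exception, at 33.6 and 34.2 CPM in vehicle tumor and 31.3 and 35.5 in MRX-2843 tumor (log2 -0.02 ± 0.09, adjusted p = 0.85). With library totals in place of TMM it was called lower (log2 -0.25, adjusted p = 0.032).

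Ciliary and other kinesins were again mixed between the tumor groups. Of the ciliary members, Kif27, Kif6 and Kif9 rose (log2 3.97, 3.56 and 1.26) and Kif19a and Kif7 fell (log2 -2.04 and -0.70), while Kif24 was at -0.86 with adjusted p = 0.137. The Kif7 call (adjusted p = 0.0142) was lost without either MRX-2843 tumor library (adjusted p = 0.0604 and 0.0509) and without vehicle tumor replicate 2 (adjusted p = 0.0581). Kif26a fell the most of all tested kinesins, from 232 and 230.1 CPM to 12.4 and 11.1 (log2 -4.30 ± 0.10, adjusted p = 1.63e-14). Of the remaining members, Kif16b, Kif13a and Kifc3 fell (log2 -0.91, -0.56 and -0.49), and Kif26b, Kif13b, Kif2a and Kif1c rose (log2 2.18, 1.51, 0.90 and 0.36). The Kif1c call was lost with library totals (log2 0.14, adjusted p = 0.0652). Kif28 had 12 and 28 counts in MRX-2843 tumor against 0 in vehicle tumor (adjusted p = 0.0428). With 3 counts over the group put in place of 0, the difference was 20-fold. Its call was lost under 6 alternatives, among them leaving out either MRX-2843 tumor library (adjusted p = 0.0791 and 0.162), either vehicle tumor library (0.168 and 0.167) or vehicle naive replicate 2 (0.0585).

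Naive brain was compared between the treatments in the same way. In MRX-2843 naive brain against vehicle naive brain, none of the 12 mitotic kinesins was called by edgeR, with 1 (Kif15) at an unadjusted p under 0.05 and 0 called by DESeq2. Background calls in this comparison were 9.78% higher and 11.7% lower. Leaving out vehicle naive replicate 2 brought 3 mitotic calls: Kif15 (log2 1.54, adjusted p = 0.0182), Kif18b (adjusted p = 0.000405, with only a library of 0 counts left in vehicle naive brain) and Kif4 (log2 1.60, adjusted p = 0.0224). Without MRX-2843 naive replicate 1, Kif2c was called lower (adjusted p = 0.0128), with only a library of 0 counts left in its group, and Kif15 was called without MRX-2843 naive replicate 2 (adjusted p = 0.0251) or vehicle tumor replicate 2 (adjusted p = 0.0487) and with no filter (adjusted p = 0.0289). Of the axonal transport kinesins 9 of 14 fell, 1 rose and 4 were not called, with a median of -0.29 against 0.02 over all genes. The falls were small: Kif3c (-0.64 ± 0.07, adjusted p = 1.84e-05) and Kif1b (-0.49 ± 0.05, adjusted p = 3.21e-06) led, and Kif5a was at -0.28 ± 0.04 (adjusted p = 0.00023). Kif1a, not called in the main fit, passed the threshold under 6 alternatives, among them DESeq2's Wald test (log2 -0.14, adjusted p = 0.0077). Kif17 was the one that rose, from 27 and 20.9 CPM to 32.8 and 34.4 (log2 0.49 ± 0.14, adjusted p = 0.0249), a call lost without MRX-2843 naive replicate 2 (adjusted p = 0.0923) or vehicle naive replicate 2 (adjusted p = 0.258). Leaving out the same libraries also lost the fall of Klc2 (adjusted p = 0.0952 and 0.108). No ciliary kinesin was called by the main edgeR fit or DESeq2, with 1 of 6 at an unadjusted p under 0.05. Kif27 was called by edgeR with only the compared groups in the fit (log2 0.96, adjusted p = 0.0281). Of the others Kif13a rose (log2 0.44 ± 0.08, adjusted p = 0.00118) and Kif26a fell (log2 -0.34 ± 0.10, adjusted p = 0.0287), the latter not without MRX-2843 naive replicate 2 (adjusted p = 0.336) or vehicle naive replicate 2 (adjusted p = 0.223). Neuron markers were mixed in the same comparison, with 3 of 8 higher and 5 lower: Slc17a7, of glutamatergic neurons, was at 1698 and 1671 CPM with vehicle and 152 and 148 with the drug. Gad2, of GABAergic neurons, was at 81.8 and 79.3 CPM with vehicle and 238 and 250.5 with the drug. The part of these neuron markers in the axonal falls was not tested.

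The difference between the drug contrast in tumor and in naive brain was tested as an interaction, positive where the change in tumor was the higher. It was called lower for 10 of 12 mitotic kinesins and higher for all 14 axonal transport kinesins, against 25.3% lower and 26.3% higher over all genes. The mitotic median was -2.86 and the axonal transport median 2.29. Kif2c (-2.33 ± 1.23, adjusted p = 0.13) and Kif22 (-0.65 ± 0.26, adjusted p = 0.0526) were the mitotic members not called. Kif2c was called under 4 alternatives, among them without MRX-2843 naive replicate 2, its library with 0 counts (log2 -3.86, adjusted p = 0.00171). Kif22 was called under 6, among them library totals (log2 -0.87, adjusted p = 0.0113) and without vehicle naive replicate 1 (adjusted p = 0.0198) or MRX-2843 tumor replicate 1 (adjusted p = 0.0142). Kif18b (adjusted p = 0.000937) was not called by DESeq2 (adjusted p = 0.0583). Kif5a had the largest axonal value (5.75 ± 0.07, adjusted p = 8.17e-17) and Kif3b the smallest (0.43 ± 0.13, adjusted p = 0.0114). The call of Kif3b was lost with library totals (log2 0.21, adjusted p = 0.19), without MRX-2843 tumor replicate 2 (adjusted p = 0.0678) and without vehicle naive replicate 1 (adjusted p = 0.0606).

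The comparison of tumor with naive brain was also made within MRX-2843. Of the mitotic kinesins, 7 of 12 rose in MRX-2843 tumor against MRX-2843 naive brain and 5 were not called. The log2 fold change was above 0 for all 12, with a median of 1.08 against 0.00 over all genes. Of the axonal transport kinesins 6 of 14 rose, 2 fell and 6 were not called, with a median of 0.13. Background calls here were 12.4% higher and 11.9% lower. Kif2c had the largest change: 8 and 0 counts in MRX-2843 naive brain against 106 and 56 in MRX-2843 tumor (4.62 ± 0.74, adjusted p = 0.000301). Kif11 was at 0.492 and 0.562 CPM and 1.14 and 2.31 (1.69 ± 0.34, adjusted p = 0.00168), and Kif23 at 1.56 and 1.41 and 3.18 and 3.12 (1.09 ± 0.24, adjusted p = 0.00366). These 3 genes were called under every other scaling, filter, test and left-out library. Kif18b (1.86 ± 0.61, adjusted p = 0.0397), Kif20b (1.61 ± 0.47, adjusted p = 0.0205), Kifc1 (0.82 ± 0.23, adjusted p = 0.0151) and Kif22 (0.62 ± 0.19, adjusted p = 0.0266) completed the 7, and each lost its call under some alternatives. Leaving out MRX-2843 naive replicate 1 left 4 of the 7 (without Kif18b, Kif22 and Kifc1, adjusted p = 0.0728, 0.059 and 0.094), and fitting only the groups compared also left 4. Kif4 missed the threshold at 1.13 ± 0.40 (adjusted p = 0.0552) but passed it under 12 alternatives, and Kif14 was at 1.06 ± 0.39 (adjusted p = 0.0608). Dividing cell markers were also higher in MRX-2843 tumor (4 of 4 called, sums above), as were 3 of 5 microglia and macrophage markers, and their part in the result was not tested.

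**Figure D5:**
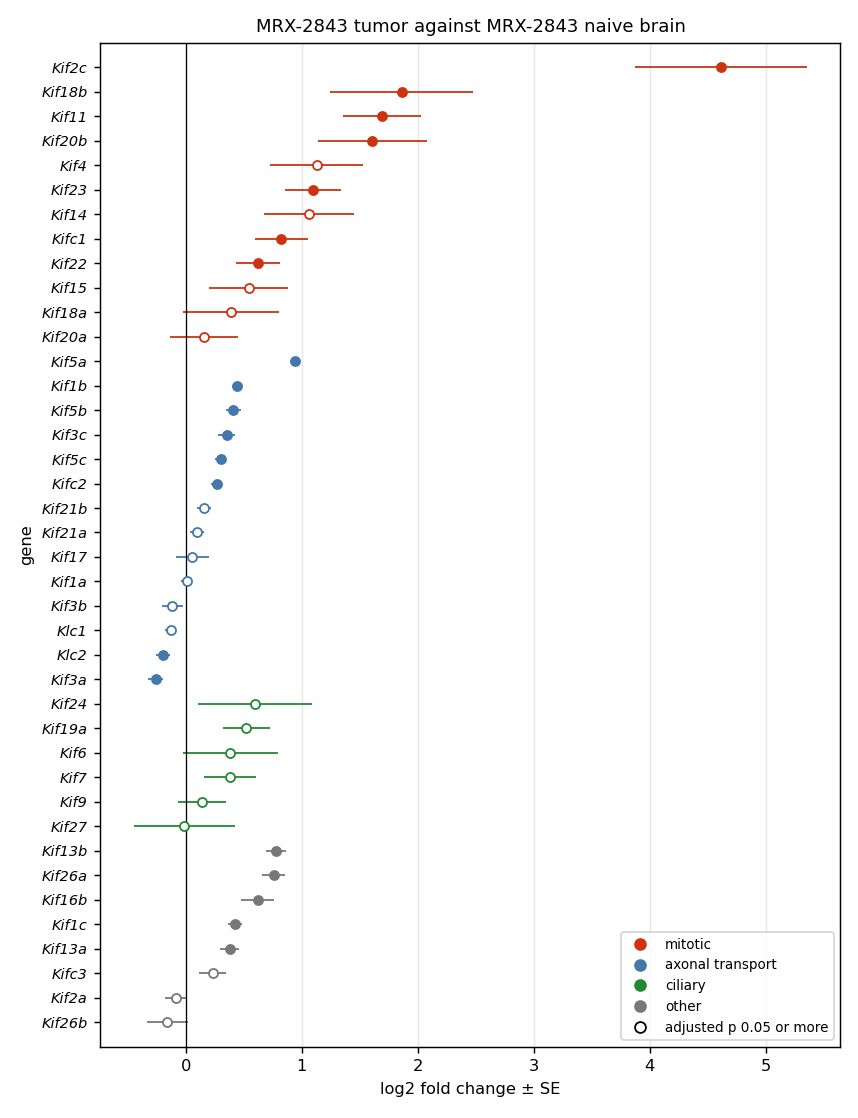
Log2 fold change ± SE of MRX-2843 tumor against MRX-2843 naive brain for 40 of the 41 tested kinesins (Kif28 is left out), by class, with open points where the adjusted p was 0.05 or more. All 12 mitotic points lie right of 0, 7 of them filled, and the axonal transport points lie between -0.26 and 0.94.

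Kif5a stood out on the axonal side: its 2 MRX-2843 tumor libraries, at 2743 and 2799 CPM, were higher than every naive brain library, at 1458 and 1425 with the drug and 1753 and 1758 with vehicle. Its rise against MRX-2843 naive brain was 0.94 ± 0.04 (log2, adjusted p = 2.45e-09). The other axonal transport kinesins that rose were Kif1b, Kif5b, Kif3c, Kif5c and Kifc2, at log2 0.44, 0.41, 0.35, 0.30 and 0.27 (adjusted p = 1.01e-05, 0.000293, 0.00288, 0.000457 and 0.00133). Kif3a and Klc2 fell, at log2 -0.26 ± 0.07 and -0.19 ± 0.06 (adjusted p = 0.0115 and 0.0309). Neither fall was called without MRX-2843 naive replicate 1 (adjusted p = 0.0782 and 0.22) or MRX-2843 tumor replicate 2 (adjusted p = 0.126 and 0.081), and that of Klc2 was not called without MRX-2843 tumor replicate 1 either (adjusted p = 0.134). Kif1a, Kif17, Kif21a, Kif21b, Kif3b and Klc1 were not called, at 0.01, 0.06, 0.10, 0.16, -0.12 and -0.13 (log2). Kif21b passed the threshold under 4 alternatives, among them DESeq2's Wald test (log2 0.19, adjusted p = 0.0257). Klc1 passed it under 1 alternative, at log2 -0.18 without MRX-2843 tumor replicate 2. Oligodendrocyte markers were higher in MRX-2843 tumor than in MRX-2843 naive brain (6 of 6 called, 13728 and 14176 CPM against 7460 and 7382), neuron markers were mixed (1 of 8 higher, 4 lower), and their part in the Kif5a rise was not tested.

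No ciliary kinesin was called in this comparison by the main edgeR fit or DESeq2, with 1 of 6 at an unadjusted p under 0.05. Values ran from -0.01 for Kif27 to 0.60 for Kif24. Kif19a passed the threshold under 2 edgeR alternatives, among them a filter of CPM at least 1 in 2 libraries (log2 0.54, adjusted p = 0.049). Of the other members, Kif13b, Kif26a, Kif16b, Kif1c and Kif13a rose at log2 0.78, 0.76, 0.62, 0.42 and 0.38 (adjusted p = 1.27e-05, 7.05e-05, 0.00463, 0.000122 and 0.00321), and these 5 calls held under every other scaling, filter, test and left-out library. Of the mitotic partners 12 of 18 rose and 6 were not called, with a median of 1.71. The adaptor list gave 5 higher and 3 lower of 18, the dynein and dynactin list 3 higher and 6 lower of 18, and the axonal cytoskeleton list 1 higher and 9 lower of 14 with a median of -0.45.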

How the data were processed

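The files used hold a deposited table of whole-number read counts for each gene in 8 libraries, 4 groups of 2. The authors made them with tools that the submitters' processing notes name only as STAR 2.7.7a, SAMtools, featureCounts and Subread with the builds hg38 and mm10. The role of each, the strand setting, the annotation and any trimming are not given in the sources used here. Of counts from 1 to 20, 79.1% were even. No count column was left unmapped.

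The fit used edgeR 4.0.16 (R 4.3.3) on these counts. Genes were filtered by filterByExpr by group (minimum count 10) and scaled by TMM. A quasi-likelihood model of 4 group means left 4 residual degrees of freedom, and the common biological coefficient of variation was 21%. Benjamini-Hochberg adjustment ran over 24356 genes, with calls at an adjusted p under 0.05. The 5 comparisons were tumor against naive brain in each treatment, MRX-2843 against vehicle in each tissue, and their interaction. DESeq2 1.42.0, other scalings, filters and subsets of libraries were alternatives. The fit was run on simulated data with the same spread set for every gene and few genes changed. Far more genes were called here, so that run does not measure the accuracy of these calls. Levels per kb use exonic length in GENCODE M21 on GRCm38, which also gives gene coordinates. It matched 52081 gene identifiers (94.0%), including all 44 kinesins. Promoters are RefSeq's, on GRCm38.p6.

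The members, classes, gene lists and markers were chosen with earlier results of these data known. Named are all mitotic, axonal transport and ciliary kinesins, other kinesins called in a comparison within tumor or of tumor with naive brain, and from each list of other genes the 3 with the smallest adjusted p and up to 3 that went against the list. Replicates differed by more than counting noise, so the count columns of a group were not copies of each other. Whether the same library or RNA was sequenced again cannot be told from this, since repeated runs can also differ by more than counting noise. Library totals of 51150569 to 112938462 counts set the precision, and 3 counts, taken as the limit of a count of 0, cover counting error only. That limit does not take into account that most low counts were even.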

Additional observations from a re-analysis of the deposited data

Results flagged for a closer look

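Each kinesin below was singled out because its change with MRX-2843 differed between tumor and naive brain by the interaction term of edgeR's quasi-likelihood fit (Benjamini-Hochberg adjusted p under 0.05 over all genes), given as the log2 change in tumor minus that in naive brain. The mitotic members were Kif18b (-4.32), Kifc1 (-3.59), Kif4 (-3.05), Kif18a (-2.99), Kif11 (-2.99), Kif15 (-2.91), Kif20b (-2.81), Kif14 (-2.50), Kif23 (-2.31) and Kif20a (-1.84), all 10 lower. The axonal transport members were Kif5a (5.75), Kif17 (5.44), Kif5c (5.05), Kifc2 (4.66), Kif1a (3.39), Klc2 (2.68), Klc1 (2.33), Kif3c (2.25), Kif1b (2.19), Kif21a (2.10), Kif3a (1.71), Kif5b (1.12), Kif21b (1.03) and Kif3b (0.43), all 14 higher. Ciliary members were higher for Kif6 (3.39), Kif27 (3.0) and Kif9 (1.24) and lower for Kif19a (-2.15) and Kif7 (-0.87). Other members were higher for Kif26b (1.67), Kif13b (1.44), Kif2a (1.14) and Kif1c (0.28) and lower for Kif26a (-3.95), Kif13a (-1.0), Kif16b (-0.66) and Kifc3 (-0.41). The call was lost under 8 alternatives for Kif7, 7 for Kifc3, 3 for Kif1c and 1 for Kif16b (without vehicle tumor replicate 2, adjusted p = 0.0706). Both groups of the drug contrast rest on libraries that also differ in the unexplained column number, in sex-linked genes and in the cell type markers given above, and the part of these in the interaction was not tested.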

How the results depend on the processing

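Over single kinesins, 3306 values were recomputed: 3181 kept direction and side of the threshold, 62 became called and 63 lost their call, none with a reversed direction, and 36 changed sign where neither fit called them. With an absolute log2 fold change of at least 1 asked for, the axonal transport kinesins called between the MRX-2843 groups went from 6 higher and 2 lower to 0 and 0, and those between the naive groups from 1 higher and 9 lower to 0 and 0. The 2 lower in MRX-2843 tumor against MRX-2843 naive brain became 1 with DESeq2 size factors and 1 with library totals, which also gave 1 lower (0 before) between the tumor groups. The 7 mitotic kinesins higher in MRX-2843 tumor than in MRX-2843 naive brain became 4 with only the compared groups in the fit, and the 0 higher between the naive groups became 1 with no filter on low counts. The cause of these shifts was not tested.

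Leaving out 1 library at a time, counts ranged from 4 to 8 for that list of 7, from 0 to 3 for mitotic kinesins higher and 0 to 1 for those lower between the naive groups, from 0 to 1 for axonal transport kinesins higher between the naive groups, and from 0 to 2 for those lower in MRX-2843 tumor against MRX-2843 naive brain. A left-out library leaves a lone sample in its group, which is assumed to vary like the other groups.

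Summed CPM per kb moved with the scaling and the length. With library totals in place of TMM, axonal transport kinesins summed to 890.5 in vehicle naive brain and 131 in vehicle tumor, and with the drug to 728 in naive brain and 966 in tumor. Mitotic kinesins summed to 39.8 in vehicle tumor and 3.02 in MRX-2843 naive brain. With coding length in place of exonic length, the axonal sums were 1951, 254, 1588 and 2097 and the mitotic sums 7.0, 67.2, 6.57 and 11.8 in the same group order. Library totals also moved the median of all genes in vehicle tumor against vehicle naive brain from -0.03 to 0.21 (log2). No protein table was used, so the length alternative rests on the gene annotation.

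With the replicate block, 12 mitotic kinesins were higher and 14 axonal transport kinesins lower in vehicle tumor, and 8 mitotic kinesins were higher in MRX-2843 tumor against MRX-2843 naive brain. Deviations of same-numbered libraries correlated at -0.00667 to 0.0176 between groups, so the numbers were not taken to pair the libraries. The fits without the MRX-2843 tumor group, without genes of chromosomes X and Y, and with coding length were chosen after seeing the data. Low kinesins such as Kif2c and Kif18b rest on 0 to 34 counts in naive brain, and 3 counts amount to 0.0281 to 0.0615 CPM, which limits what could be detected there.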
